A study of Drosophila melanogaster with 2 samples.

Results

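The peaks described here are summits of a Hand-GFP chromatin immunoprecipitation at divergent promoters, the stretches where protein-coding genes on opposite strands start close to each other. A summit was kept where start sites of at least 2 different protein-coding genes on opposite strands lay within 500 bp of it, by the Ensembl annotation of the dm6 genome. Of the 3310 peaks in the thresholded list on that build, 414 met this rule, which is 12.5% (95% Wilson interval 11.4 to 13.7%). Another 1229 summits lay within 500 bp of starts on 1 strand only, and 1667 lay outside promoters. Signal played no part in choosing among these 3310 peaks, but the list itself held only peaks that had passed a reproducibility threshold. The lowest signal was 92.5 among the 414, and 92.6 both at promoters of 1 strand and outside promoters.

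The material was whole embryos of mixed sex, aged 6 to 24 hours, from a transgenic Drosophila melanogaster line in which Hand carries green fluorescent protein at its C terminus. Chromatin was sheared by sonication to 200 to 800 bp and precipitated with an antibody against the fluorescent protein, so binding was read in all cells of the embryo at once and cannot be assigned to a cell type. There was 1 group with 2 biological replicates, numbered 2 and 3, and no untagged or control library was analysed here. The thresholded list carries signals from the pooled replicates, so the main results are also given for the 3310 strongest peaks of each replicate's own list. A value with no replicate named is pooled.

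The library labelled replicate 2 stood apart at the tagged gene: 4 of its 30000 listed peaks fell in the 90 kb around Hand, against 36 in replicate 3. Whether that library matches its label was not tested. The thresholded list draws on it too, through the pooled signal and the comparison of replicates, so replicate 3 alone gives the values without it. With 2 replicates of 1 group, an exact sign-flip test cannot go below p = 0.5, so none was run. Values from the 2 replicates are the measure of error, and Wilson intervals cover counting only and treat neighbouring peaks as independent.

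Hand belongs to the basic helix-loop-helix class of DNA-binding proteins and acts in the heart, the visceral muscle and the blood-forming lymph gland. It pairs with broadly expressed partners of the same family, in the fly Daughterless, and such pairs bind E-boxes, spelled CANNTG. Genes that share a divergent promoter are transcribed away from each other from a common stretch of DNA. In flies many of them serve functions that every cell needs, and the factors DREF, BEAF-32 and M1BP are known from promoters of that kind.

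To show what lay between the paired starts, 4 stretches are given from among the 15 strongest peaks, followed by the strongest pair with a cytosolic ribosomal gene and, of the stretches that could be shown, the strongest with a DREF word. Stretches of 60 to 300 bases without an annotated exon were taken. Each runs 5′ to 3′ on the plus strand from the base after the minus-strand gene's start to the base before the plus-strand gene's start, on dm6, and was read from the RefSeq genome of that build. Capitals mark CANNTG, the DREF word TATCGATA, the BEAF-32 core CGATA and the M1BP word GGTCACACT on either strand. TATCGATA contains CGATA, so such a site counts for both.
Chro and Ssl1, chr3L:22878985-22879088: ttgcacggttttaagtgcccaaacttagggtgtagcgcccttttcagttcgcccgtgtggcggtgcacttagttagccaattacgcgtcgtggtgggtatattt
Art3 and mRpS10, chr3R:15229409-15229664: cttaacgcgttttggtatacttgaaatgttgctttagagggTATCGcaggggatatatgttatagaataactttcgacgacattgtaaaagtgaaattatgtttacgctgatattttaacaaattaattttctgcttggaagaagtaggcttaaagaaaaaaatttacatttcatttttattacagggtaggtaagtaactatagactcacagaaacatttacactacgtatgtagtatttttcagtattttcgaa
CG13390 and CG17294, chr2L:8376798-8377034: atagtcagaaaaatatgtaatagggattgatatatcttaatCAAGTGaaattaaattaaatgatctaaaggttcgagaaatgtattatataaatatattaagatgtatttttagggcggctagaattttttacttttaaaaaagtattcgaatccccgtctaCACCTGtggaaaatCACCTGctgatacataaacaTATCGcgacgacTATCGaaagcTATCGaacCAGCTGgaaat
Tcs5 and CHMP2B, chr3L:5139396-5139618: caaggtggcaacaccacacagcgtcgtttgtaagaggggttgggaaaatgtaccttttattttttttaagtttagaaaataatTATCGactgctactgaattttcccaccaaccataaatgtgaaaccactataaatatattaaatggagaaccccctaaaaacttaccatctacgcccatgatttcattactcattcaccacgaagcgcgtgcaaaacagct
RpS27 and Nup37, chr3R:25247515-25247657: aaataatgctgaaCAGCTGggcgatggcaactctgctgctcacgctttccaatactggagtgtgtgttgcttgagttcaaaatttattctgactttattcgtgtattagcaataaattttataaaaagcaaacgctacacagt
Atat and Shc, chr3L:9426759-9427009: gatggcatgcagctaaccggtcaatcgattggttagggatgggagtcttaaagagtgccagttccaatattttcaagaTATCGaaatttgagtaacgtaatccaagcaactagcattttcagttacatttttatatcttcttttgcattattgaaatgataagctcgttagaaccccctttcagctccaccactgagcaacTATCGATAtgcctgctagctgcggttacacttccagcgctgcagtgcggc

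The 6 stretches differed in which marked words they held. The one between Chro, a chromosomal protein of polytene interbands, and Ssl1, a TFIIH subunit, held none of the marked words, and its summit lay outside it, 87 bp from the Chro start on the side of that gene. The stretch between Art3, an arginine methyltransferase, and mRpS10 was 69.9% A or T and held 1 CGATA. Its summit fell on base 125 of 256. Between CG13390 and CG17294 there were 4 E-boxes and 3 CGATA, but the summit, on base 69 of 237, lay in the A+T-rich part away from most of them. The stretch between RpS27 and Nup37 held 1 E-box, with the summit 7 bp from the RpS27 start on the side of the gene. That between Atat, a tubulin acetyltransferase gene, and Shc held the DREF word. Its summit was on base 98 of 251, and the DREF word did not lie within 50 bp of it.

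Summits were denser at divergent promoters than at promoters of 1 strand. Positions meeting the rule made up 1.25% of the bases of the 6 main arms and held 12.5% of the summits, 9.999 times their share. This was 8.98 times in replicate 2 and 10.2 times in replicate 3. Promoters of 1 strand held 3.64 times their share, with 3.74 and 3.67 in the replicates. In summits per Mb, divergent promoters held 247, 222 and 253 (thresholded list, replicate 2, replicate 3), promoters of 1 strand 89.98, 92.4 and 90.8, and other positions 14.1, 14.1 and 13.9. Each class kept its place in the order in all 3 lists, and the gap between the promoter classes exceeded the difference between replicates.

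The excess lay within 200 bp of a start. At 51 to 100 bp from the nearest start there were 444 summits per Mb at divergent promoters and 136 at promoters of 1 strand, a ratio of 3.27 (2.60 in replicate 2 and 3.52 in replicate 3). At 101 to 200 bp the ratio was 2.36 (1.99 and 2.13), and within 50 bp it was 1.62 (1.69 and 1.75). At 201 to 300 bp the ratio was 0.837 when pooled, 1.09 in replicate 2 and 0.947 in replicate 3, and the order differed between lists. At 301 to 400 bp it was under 1 in each list, at 0.665, 0.507 and 0.841, on 4 to 6 divergent summits.

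**Figure D1:**
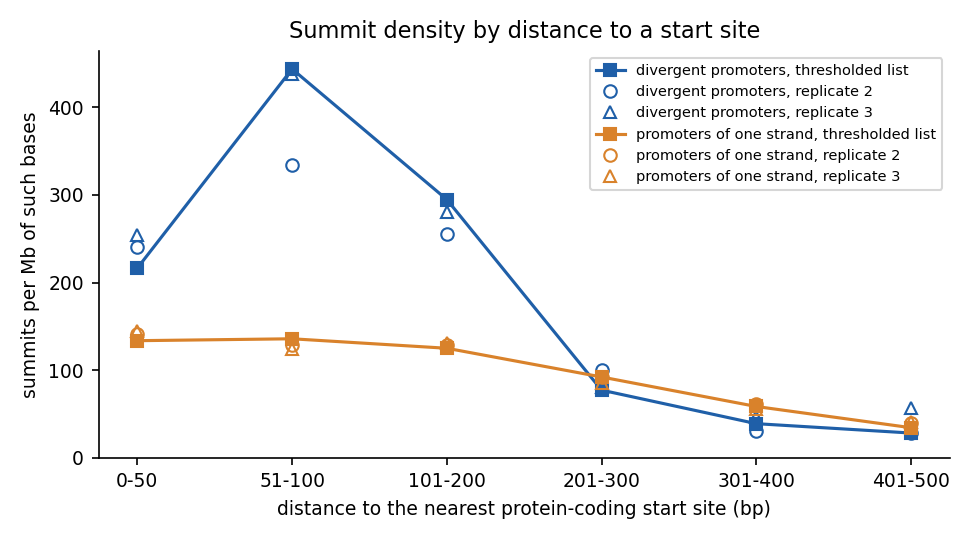
Summits per Mb of bases (y axis) by distance to the nearest protein-coding start (x axis, bp), for divergent promoters in blue and promoters of 1 strand in orange. Lines and squares show the thresholded list, circles and triangles the 3310 strongest peaks of replicates 2 and 3; the classes separate most at 51 to 100 bp, at 444 against 136 per Mb.

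Counted by gene, 5052 of the 13945 protein-coding genes had a head-to-head partner start within 1000 bp. A thresholded summit lay within 500 bp of a start of 1045 of these (20.7%, Wilson 19.6 to 21.8%), against 810 of the 8893 genes without a partner (9.11%, 8.53 to 9.72%). Over all genes the share was 13.3%. The shares were 19.0% and 9.07% in replicate 2, and 21.4% and 9.27% in replicate 3. A summit near the starts of a pair counts for each of its genes, so this contrast is partly set by the counting. How much of it arises that way was not tested. Genes at the 414 peaks themselves numbered 812, or 5.82% of all protein-coding genes. Genes known only by a CG number made up 30.7% of them and 43.7% of all genes.

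Most divergent promoters of the genome nevertheless held no thresholded summit. The rule defined 2536 separate stretches, and 393 of them (15.5%, Wilson 14.1 to 17.0%) held at least 1, with 13.8% in replicate 2 and 16.0% in replicate 3. Of these, 372 held 1 summit and 21 held 2. In the full lists of 30000 peaks, which include many weak ones, 42.1% of the stretches held a summit in replicate 2 and 54.7% in replicate 3.

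Arm X held fewer of these peaks than the large autosomal arms. On X, 39 of 397 divergent stretches held a thresholded summit (9.82%), against 354 of 2127 on 2L, 2R, 3L and 3R (16.6%). The same shares were 9.32% and 14.7% in replicate 2, and 11.1% and 16.9% in replicate 3. The lowest of the 4 autosomal arms was above X in each list, with 14.5% on 2R in the thresholded list, 13.8% on 3L in replicate 2 and 13.9% on 2R in replicate 3. At promoters of 1 strand the density on X was close to that of the autosomal arms, with 92.5 against 89.8 summits per Mb (91.2 against 92.9 in replicate 2 and 91.2 against 90.9 in replicate 3). At divergent promoters it was 155 on X and 265 per Mb on the autosomal arms (143 against 238 in replicate 2 and 178 against 267 in replicate 3). The lower level on X was therefore seen at divergent promoters and not at the others; it was not tested. Arm 4 had 12 divergent stretches, of which 0 held a thresholded summit, 0 one in replicate 2 and 2 one in replicate 3.

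In 402 of the 414 cases (97.1%) the nearest pair of starts was head to head, with the minus-strand start to the left. In the other 12 the starts overlapped, as at CG31808 and Cyt-c-d, a cytochrome c gene of the male germ line. The median distance between head-to-head starts was 285.5 bp, with quartiles at 210 and 379 bp, and was 283.5 bp in replicate 2 and 281 bp in replicate 3. The closest pair was dpa, a replicative helicase subunit gene, and didum, a myosin V gene, at 2 bp. Next came CG3032 and CG4593 at 6 bp and SerRS and CG17260 at 8 bp; CG9921 and Dsp1 were 12 bp apart. Most peaks held exactly 2 genes; 22 held more, among them 1 with 10 annotated pre-mod(mdg4) genes, which are trans-spliced parts of a single locus.

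The summit fell between the starts in 296 of the 402 head-to-head cases (73.6%), with 68.7% in replicate 2 and 74.9% in replicate 3. The median distance was 88 bp to the nearest start and 70 bp to the midpoint of the pair. The rule itself favours positions near both starts, so these distances describe the peaks and carry no test. By strand, 211 summits lay nearer the plus-strand gene, 202 nearer the minus-strand gene and 1 at equal distance. The split was 204 against 168 in replicate 2 and 215 against 207 in replicate 3. The same peak's summit in the replicates' lists differed by a median of 26 bp (quartiles 10 and 48.5 bp, 371 peaks), so smaller offsets than that were not resolved.

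Whether the summit lay between the starts depended on their spacing. With starts 1 to 100 bp apart it lay between them in 17.6% of 51 cases, and at 101 to 200 bp in 46.2% of 39. At 201 to 300 bp it did so in 86.0% of 136. Closely spaced starts leave few bases between them, so the rise is partly set by the geometry. Signal varied little with spacing: the median was 157 at 1 to 100 bp, 151 at 201 to 300 bp and 136 at 501 to 1000 bp.

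**Figure D2:**
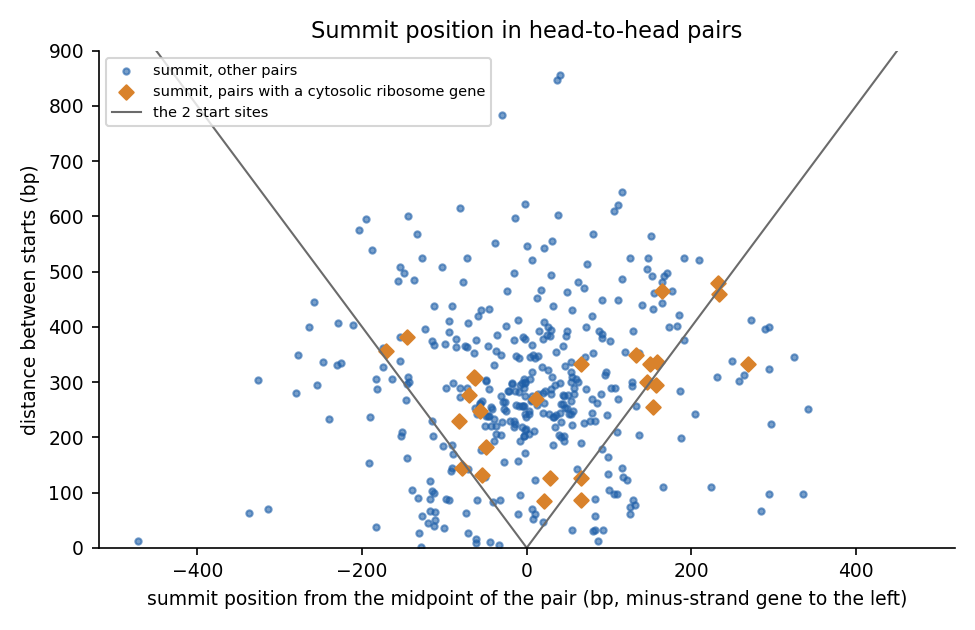
Each point is a summit at a head-to-head pair, placed by its distance from the midpoint of the pair (x axis, bp, minus-strand gene to the left) and the distance between the starts (y axis, bp). The grey lines are the starts; of 402 summits 296 lie between them, and pairs with a cytosolic ribosome gene (orange) gather along a line.

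Across all 2550 head-to-head pairs of the genome, with starts up to 1000 bp apart, occupancy was highest at middle spacing. A thresholded summit lay within 500 bp of the midpoint in 27.3% of pairs spaced 201 to 300 bp (25.2% in replicate 2 and 27.5% in replicate 3) and in 23.7% of those at 301 to 400 bp (19.5% and 23.5%). It was lowest, 13.1%, at 101 to 200 bp (11.1% and 14.3%), with 17.3% at 1 to 100 bp and 15.7% at 501 to 1000 bp. The order of these extremes was the same in both replicates. The median spacing of pairs with a summit, 291 bp, and without, 299 bp, differed little.

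Signal, the peak caller's own value, ran from 92.5 to 929 over the 414 peaks, with quartiles at 110, 146 and 228. The median was 139 at promoters of 1 strand and 132 outside promoters. Where the same peaks were found in the replicates' lists, the medians of the 3 classes were 54.0, 53.3 and 50.02 in replicate 2 and 99.9, 90.2 and 86.7 in replicate 3. The divergent class was highest in each list, but by a small margin against its own spread. The stronger 1655 of the thresholded peaks held 232 of the 414 (56.0%), 51.9% of those at promoters of 1 strand and 47.1% of those outside.

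A summit within 100 bp was present in both replicates' full lists for 371 of the 414 (89.6%, Wilson 86.3 to 92.2%), close to 90.2% at promoters of 1 strand. Replicate 2 held 91.1% and replicate 3 held 98.1%. Since the thresholded list was made by comparing these replicates, recurrence in both is built into the choice and is a description only. At this distance 2 peaks had no match in either list, 1 at SH3PX1 and vsg and 1 at osi and tweek. Among the 3310 strongest peaks of each replicate the 414 recurred less: 68.1% in replicate 2, 85.5% in replicate 3 and 59.2% in both.

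Replicate 3 gave the higher signal at most of these peaks, with a median ratio of 1.94 to replicate 2; the lists were not scaled to each other. Across the 371 peaks found in both, the signals had a Spearman rho of 0.705, as a description over peaks of the same 2 libraries. The ratio was highest, 7.57, at CG2004 and CG1785, with signals of 16.8 and 128. It was also high at Hsc70-5 and CG8531 (5.98), Kpc1 and CG42542 (5.95), CG11710 and mal (5.73) and CG3104 and RpS21 (5.37). Replicate 2 gave the higher signal at CG32486 and PAN3 (0.311), Pss and Nubp2 (0.384), PNPase and Gprk2 (0.555), Vps60 and anchor (0.592) and CG17734 and CG5214 (0.647). These 10 peaks had pooled signals from 95.6 to 153, in the lower part of the range. At Pss and Nubp2 the stronger neighbour had 249 and a ratio of 2.40, and the peak with the low ratio had 99.4.

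The strongest of the 414 lay between mRpS23, a mitochondrial ribosomal protein gene, and CenG1A, a GTPase-activating protein gene, at 2L 13835309-13835619. Its pooled signal was 929, with 327 in replicate 2 and 600 in replicate 3, and its summit was 94 bp from the CenG1A start. It ranked only 20 among all 3310 peaks, so the strongest peaks of the experiment were elsewhere. The second, at Pdrg1 and Pal1 (2R 9959721-9960086), had 915, 276 and 643. Its summit, 4 bp from the midpoint of the pair, lay 1051 bp from a start of Mef2, the muscle regulator gene, which the rule did not reach.

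CG11309 and CG7632 had a signal of 883, Chro and Ssl1 832, and Stt3A, an oligosaccharyltransferase gene, with bves 814. Art3 and mRpS10 followed with 787, Acbp1 and the mechanosensitive channel gene Piezo with 778, and eIF4EHP, which codes for a cap-binding repressor of translation, with CG18428 with 776. The other 7 of the 15 strongest were at Fbw5 and CG9147 (754), CG13390 and CG17294 (723), Pax and Alp12 (702), Tcs5 and CHMP2B (640), CG5611 and Mtl (607), CG1602 and PIG-G (600), and CG8372 and CG8360 (596). All 15 were found in both replicates, with replicate 3 the higher, at ratios from 1.55 to 2.33. The genes were of varied function, and none was in the lists of heart, pericardial, visceral muscle or blood genes.

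**Figure D3:**
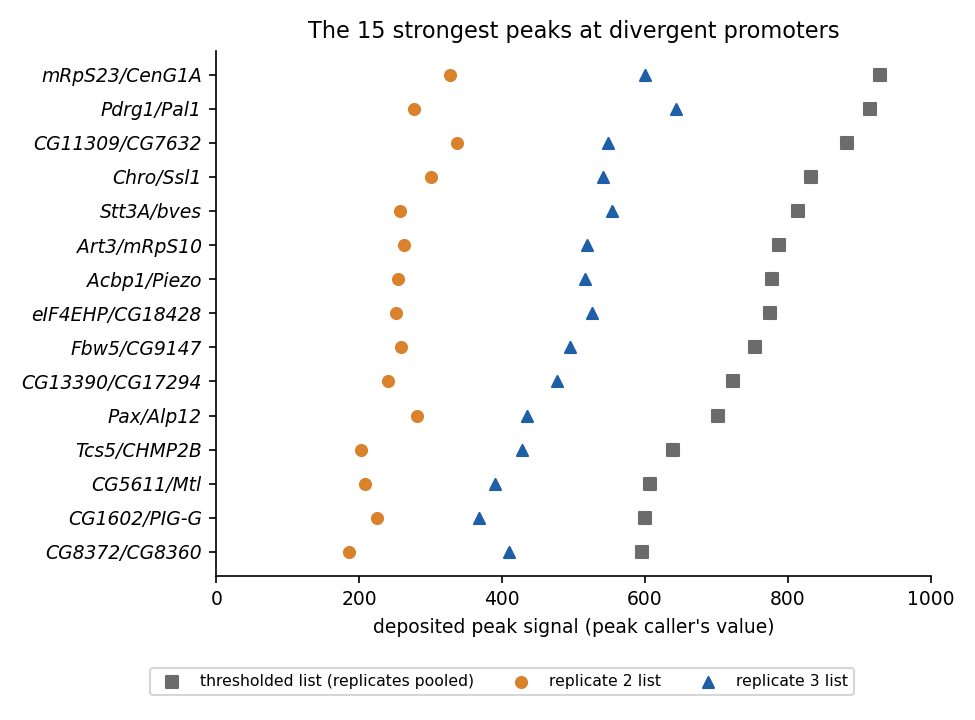
Peak signal (x axis, the peak caller's value) of the 15 strongest peaks at divergent promoters (y axis, minus-strand gene first). Grey squares are the thresholded list, orange circles replicate 2 and blue triangles replicate 3; replicate 3 is above replicate 2 in each of the 15.

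Genes of the cytosolic ribosome were the best represented of the 25 gene lists. Of 92, 25 were at these peaks (27.2%; 28.3% in replicate 2 and 27.2% in replicate 3), against 5.82% of all genes. Having a partner is commoner in this list, at 59.8% against 36.2% of all genes. Among genes with a partner the share was 45.5% for the list and 15.9% overall. Promoters of 1 strand accounted for another 34 of the 92, against 1043 of all 13945 genes, so the list was frequent there too. With both kinds of promoter counted, 64.1% of the list and 13.3% of all genes had a thresholded summit. The strongest were at RpS27 and Nup37 (424), Ripalpha and RpL7 (396), and Nelf-E and RpL14 (315). RpL13 shared its peak (275) with Dref, which codes for DREF.

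The summit in these pairs sat on the ribosomal gene's side. In 24 of 26 peaks it was nearer the ribosomal gene's start than the partner's, with medians of 33.5 bp and 226 bp. The exceptions were RpL34b and RpLP0-like, the latter a related gene that the list's name pattern took in. It was so in 25 of 29 peaks in replicate 2 and in 25 of 29 in replicate 3. The sequence there was 54.5% A or T, below the 66.9% mean of all 414, and the median signal was 238.

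Genes of the mitochondrial ribosome were also frequent but placed otherwise. Of 73, 14 were at these peaks (19.2%, the same in each replicate). Of the list, 79.5% had a partner, and among those the share was 24.1%, against 15.9% of all genes with a partner. In 3 of 15 peaks the summit was nearer the mitochondrial ribosomal gene (4 of 14 in each replicate), with medians of 166 bp to that gene and 94 bp to its partner. The windows were 67.6% A or T. The summit thus adjoined the listed gene in the cytosolic list and more often its partner in the mitochondrial one. The difference was not tested.

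Several other lists of genes used in all cells were above the 5.82% of all genes, but they were also rich in genes with a partner. The aminoacyl-tRNA synthetases had 5 of 31 genes at these peaks (16.1%; 6 and 5 in the replicates), with ThrRS beside Patsas (188), IleRS beside Hem (185) and GluProRS beside AP-1sigma (151). Splicing factors had 5 of 32 (15.6%; 4 and 5 in the replicates), with U2af50 beside PIG-Q (233), SmD3 beside Oda (165) and snRNP-U1-C beside gukh (146). Transcription machinery had 8 of 79 (10.1%; 7 and 9 in the replicates), with Polr3E beside CG10584 (367), MED30 beside Rev1 (217) and Polr2B beside 140up (192). This list did not hold Ssl1, the TFIIH subunit gene at a peak of 832, so its count is that of the listed genes only. Translation factors had 5 of 51 (9.80%; 4 and 6 in the replicates), with eIF3h beside senju (241). Among genes with a partner the shares were 22.7% for the synthetases, 17.2% for splicing and 14.5% for transcription, against 15.9% of all. Of the 25 translation factors with a partner, 5 were at these peaks. As listed, the splicing and transcription genes lay close to the background. Members of Vps sorting complexes had 4 of 27 (14.8%), with 2 in replicate 2 and 6 in replicate 3, so that share was not settled by the replicates.

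The respiratory chain and proteasome lists were near or under the share of all genes, and lower still against genes with a partner. Of their genes with a partner, 6.82% and 3.85% were at these peaks, against 15.9% of all such genes. The respiratory chain and ATP synthase had 3 of 87 genes (3.45%; 5.75% and 4.60% in the replicates), although 50.6% had a partner; ND-ASHI beside Fum1 had 485, and ND-42 beside Cchl had 189 and 129. The proteasome had 1 of 48 (2.08%), Rpn3 beside l(2)37Bb (100.8), and 54.2% had a partner. DNA replication had 1 of 31 (3.23%; 3 genes in replicate 3), PolD2 beside CG13933 (575). That list left out dpa, the helicase subunit gene named above, which was also at these peaks. Its share is therefore that of the listed genes only. The cyclins and their kinases had 1 of 21 (4.76%), Cdk12 beside SAK (119). Other lists were above the 5.82% of all genes in the thresholded list, on few genes. The CCT chaperonin had 1 of 8 (12.5%), CCT3 beside CG10324 (101), and 0 in either replicate. The nuclear pore had 2 of 21 (9.52%; 1 and 3 genes in the replicates), Nup37 and Nup98-96 (103, beside mbc). Polycomb and trithorax genes had 4 of 30 (13.3%; 2 and 3 in the replicates). Among them were brm, a chromatin remodeller gene, beside Arl1 (382), E(z), the histone methyltransferase gene of PRC2, beside Cnep1r2 (372), and phol beside CG3552 (95.7). With a partner the shares were 14.3% for the chaperonin, 11.1% for the pore and 23.5% for Polycomb and trithorax genes.

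Listed tissue genes were few at these peaks, and few of them could have been present. Of 63 genes of the tissues where Hand acts (heart, pericardial cells, visceral muscle and blood), 6 had a head-to-head partner (9.52%), and 0 were at these peaks in the thresholded list and in replicate 2, with 1 in replicate 3. Of these 63, 10 had a thresholded summit at a promoter of 1 strand, as had 12 of the 60 genes of other tissues and 1043 of all 13945. The other tissues were neuronal, tracheal and epidermal, gut, fat body and germ line, with 8 partnered and 2 at these peaks: gcl beside CG14767 (113) and piwi beside CG12253 (108), both germ-line genes. Of the 8 with a partner, 25% were thus at these peaks, against 15.9% of all genes with a partner. Genes outside the lists, such as Cyt-c-d of the male germ line, were not counted here. Cuticle genes (70) and chemosensory receptor genes (179) had 0. Only 4 (5.71%) and 26 (14.5%) of them had a partner, against 36.2% of all genes, so few could have been at these peaks. No such peak lay at Hand, da or tin; the nearest were 11392, 12237 and 13546 bp from their starts.

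**Figure D4:**
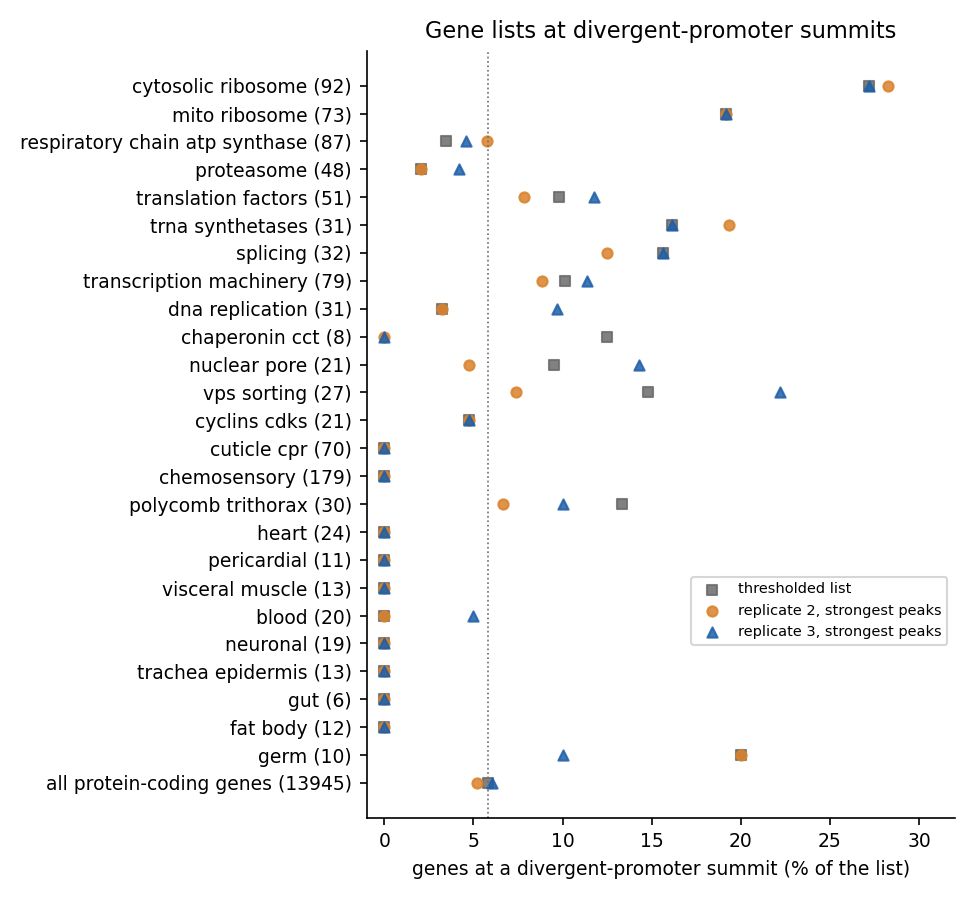
Share of each gene list at divergent-promoter summits (x axis, percent; number of genes in brackets), for the thresholded list (squares) and the strongest peaks of replicate 2 (circles) and replicate 3 (triangles). The dotted line is the share of all protein-coding genes, 5.82%; the cytosolic ribosome is at 27.2% and the tissue lists other than germ lie at 0, except blood in replicate 3 at 5%.

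Within 50 bp of the summit, E-boxes were no commoner than at other promoters. CANNTG was found on either strand in 32.1% of the 414 windows of 101 bp (33.1% in replicate 2 and 31.6% in replicate 3). It was in 35.3% of windows at promoters of 1 strand, 43.7% of those centred on all 19252 protein-coding starts, and 35.8% of those at the midpoints of 2056 head-to-head pairs without a summit. Here and below, such pairs lacked only a thresholded summit within 500 bp of the midpoint, and weaker peaks were not excluded. In the full lists, 42.1% of all divergent stretches held a summit in replicate 2 and 54.7% in replicate 3. The form CATCTG, bound by Hand with Daughterless, was in 1.93% (3.23% and 1.65%), against 3.92% at all starts. A+T content differed between these sets of windows, and its part in the counts was not tested.

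Words of promoter factors were no commoner either near these summits than at the midpoints of pairs without a summit. TATCGATA was in 3.86% of windows (3.49% and 4.01%), 1.30% of those at promoters of 1 strand, 4.48% at all starts and 5.20% at pairs without a summit. CGATA was in 17.6% (18.0% and 19.8%), with 13.0%, 23.6% and 25.3% in the same comparisons. GGTCACACT was in 0.725% (2.15% and 0.472%), against 3.64% at all starts. TATCGATA and CGATA were thus commoner at the 414 than at promoters of 1 strand, while midpoint windows of pairs without a summit held more of each. The windows were placed unlike, on summits and on midpoints, so for any word they do not compare whole promoters. Between the starts of the 402 head-to-head cases, 16.2% of stretches held TATCGATA and 56.2% held CGATA. Pairs without a summit were not counted that way.

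The word GAGAG, bound by the GAGA factor, was in 7.73% of the windows (8.60% and 9.20%), against 17.8% at promoters of 1 strand, 12.7% at all starts and 7.49% at pairs without a summit. TATAAA was in 25.4% (24.2% and 26.7%), 19.1% at promoters of 1 strand and 22.5% at pairs without a summit. TAAACA, a forkhead core, was in 17.2% (14.0% and 16.0%; 15.03% at pairs without a summit). For GATAAG the value was 5.80%, for CACGTG 1.21% and for the Zelda word CAGGTAG 0%, against 5.50%, 1.82% and 0.483% at all starts. CCGGAA, an ETS word, was in 3.86% (4.57% and 4.72%), against 1.80% at pairs without a summit, 2.85% at all starts and 3.42% at promoters of 1 strand, where it was nearly as frequent. Of the 12 words it had the highest ratio to pairs without a summit in each of the 3 lists.

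Some words varied with signal inside the 414. CCGGAA was in 7.97% of the 138 strongest windows, 3.62% of the middle 138 and 0% of the weakest 138. In replicate 2 the order was 8.06%, 4.03% and 1.61%, and in replicate 3 it was 7.09%, 4.96% and 2.11%. GATAAG ran the other way, with 1.45%, 5.80% and 10.1% (3.23%, 6.45% and 9.68%, then 1.42%, 7.09% and 7.75%). Both orders held in each list, on few windows. CANNTG was lowest among the strongest in each list, at 27.5%, 29.0% and 39.9% in the thresholded list, but in replicate 3 the values, 30.5%, 32.6% and 31.7%, hardly differed.

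The sequence at these summits was rich in A and T. Windows averaged 66.9% ± 10.2 (SD over 414 windows; 65.1% in replicate 2 and 66.8% in replicate 3), against 61.3% ± 11.4 at promoters of 1 strand and 56.3% at all starts. Midpoints of head-to-head pairs without a thresholded summit had 66.1% ± 10.4, and summits outside promoters 66.1% ± 9.74. This richness was thus found both at divergent promoters without a thresholded summit and at summits away from promoters. Weaker peaks may lie at the former. From the summit to 400 bp to the left it fell from 68.2% to 53.9%. Among the 414 it was 68.9% in the strongest 138 and 64.3% in the weakest 138. By annotation, 56.0% of the summits lay between genes, 30.4% in exons and 13.5% in introns, against 36.2%, 27.0% and 36.8% at promoters of 1 strand.

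**Figure D5:**
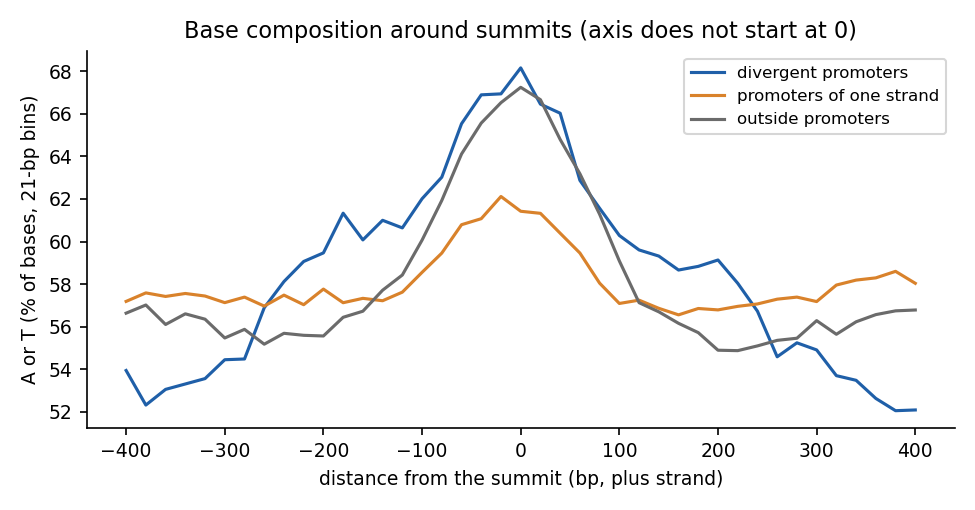
Share of bases that are A or T (y axis, percent in 21-bp bins, axis not from 0) by distance from the summit (x axis, bp, plus strand) for summits at divergent promoters (blue), at promoters of 1 strand (orange) and outside promoters (grey). The blue line peaks at 68.2% over the summit and falls to 53.9% at 400 bp to the left.

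The interval of a peak carried little detail, since 351 of the 414 (84.8%) were 436 bp wide and 358 (86.5%) had the summit at the centre. Another thresholded peak overlapped 39 of them (9.42%), and 2 shared a single interval with separate summits, at eIF4EHP and CG18428, with signals of 776 and 247. At the edge of the rule, the peaks just inside had their farther start at 497 bp (Dredd and su(sable), signal 118), 494 bp (CG13955 and prel, 161) and 493 bp (CG14968 and ZnT63C, 275). Just outside were MED19 and CG7430 at 502 bp (111), tank and CG12194 at 503 bp (432) and Spase22-23 and mask at 509 bp (173).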

How the data were processed

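The deposited files were peak lists on dm6 and dm3; the dm6 lists were used. Per the labels' file listing, the authors called peaks per replicate and on pooled replicates, against one control alignment, and obtained the thresholded list by a reproducibility (IDR) comparison. The signal that the authors deposited comes from their peak caller and is not scaled between lists. Not given in the sources used here were the aligner, caller, settings, IDR threshold and depth, so the precision that depth allows is unknown. Reads and control alignments were not analysed here.

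The summit was the start plus column 10 of the list. Start sites came from the protein-coding transcripts of Ensembl release 115 on 6 arms, and sequence from the RefSeq genome of that build. Base backgrounds were counted exactly over all positions. Replicate peaks matched within 100 bp. Words were sought on both strands in 101-bp windows. Programs used Python 3.11.15, numpy 2.4.6, scipy 1.17.1 and matplotlib 3.10.9 and were tested on simulated data.

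Genes named were those at the 15 strongest peaks, the 3 strongest peaks of each gene list, the 5 closest head-to-head pairs (1 of which is not reported here), the 5 highest and 5 lowest replicate ratios, and Hand, da and tin. Dref, Mef2, CG31808 and Cyt-c-d, the pre-mod(mdg4) genes, the pairs at the edge of the 500-bp limit, pairs without a replicate match and the exceptions in the ribosomal list were added after their values were seen. The members, gene lists and words were chosen with earlier results of these data known. Alternatives were windows of 200 and 1000 bp, 1 start per gene, all annotated genes, the stronger 1655 peaks, each replicate's own list, other match and word distances, and removal of histone genes.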

Additional observations from a re-analysis of the deposited data

How the results depend on the processing

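Of 106 recomputed main values, 47 stayed (a count within 1.5 times its main value, a share within its counting interval, another value within the replicates' SD) and 59 moved; the cause was not tested, beyond what each construction fixes. With starts within 200 bp there were 195 peaks and 408 genes, divergent promoters held 17.4% of promoter summits, starts lay 224 bp apart and 82 bp from the summit, signal was 1.14 and 1.13 times that at promoters of 1 strand and outside promoters, 92.3% were in both replicates, 17.8% of partnered and 6.49% of other genes had a summit, and A+T was 69.2%. With 1000 bp there were 583 peaks and 1116 genes, 29.4%, 338 bp, 98 bp, 66.5% between the starts, ratios of 1.01 and 1.07, 22.6% and 10.4% of genes, and 64.9% A+T. With 1 start per gene they were 30.9%, 94.7% head to head, 267.5 bp, 94.5 bp, 65.4% between, and 17.8% and 7.85% of genes. With all annotated genes they were 28.1%, 93.2% head to head, 288 bp, 89 bp, ratios of 0.999 and 1.07, and 18.9% and 7.18% of genes. The stronger 1655 peaks gave 232 peaks and 465 genes, 280 bp, 94.5 bp, 78.0% between, ratios of 0.982 and 1.04, 95.3% in both replicates, 11.8% and 5.17% of genes, and 68.5% A+T. The main signal ratios were 1.05 and 1.11, so the ratio to promoters of 1 strand crossed 1 under all annotated genes and the stronger peaks.

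Matching within 250 bp found 97.1% in both replicates and within 50 bp 70.8%. Windows of 100 bp on each side gave 64.9% A+T. Leaving out either replicate gave 372 to 424 peaks, 22.8 to 25.5% of promoter summits, 281 to 283.5 bp, 85.5 to 86.5 bp, 68.7 to 74.9% between the starts, ratios of 1.06 to 1.11 and 1.11 to 1.14, 19.0 to 21.4% of partnered genes and 65.1 to 66.8% A+T. Removing histone genes moved none of these main values. Of 320 values for single lists and words, 256 stayed and 64 moved. No paired analysis was possible because there was 1 group and nothing to pair its replicates with.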
